A study of Mus musculus with 39 samples.

Results

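The effect of losing Bax was measured in sorted sensory ganglion cells of newborn mice by comparing 4 arrays of Bax-/- mice with 4 arrays of wild-type mice. These are 8 of the 39 Affymetrix arrays of the series. They were taken by their sample labels, as every Bax-/- array and every wild-type array made from pooled lumbar ganglia at p0, the day of birth. Dorsal root ganglia (DRG) of levels L1 to L6 were pooled and dissociated. Cells were sorted by the fluorescence of a GFP transgene under TrkC regulatory elements, on average 350 cells per sample, and their RNA was amplified before hybridization. The TrkC GFPon gate holds proprioceptors, the neurons that sense muscle stretch and tension. The TrkC GFPoff gate holds the other cells of the ganglion, which include cutaneous and pain-sensing neurons and glia. Each genotype has 2 GFPon arrays and 2 GFPoff arrays. All mice carried the GFP transgene on a mixed 129/C57Bl6 background, and the wild-type mice had both Bax and NT3 intact. The Bax-/- mice lacked Bax in every cell and kept NT3. In the study they served as the control for mice that lack both genes, in which proprioceptors survive without NT3. The labels do not say whether 2 arrays of a group came from separate animals or litters. Sex-linked transcripts, given below, differed between the 2 arrays of each group, so these came from different animals. Whether litters differed is not known. The p-values measure only the spread between the 2 arrays of a group, which includes any difference between the sexes. Part of that spread may be technical. That spread was estimated over the 16 pooled newborn arrays fitted. These include arrays of NT3-/- Bax-/- mice, which lack both genes, and mlcNT3 mice, in which a transgene adds NT3 in muscle. At an adjusted p under 0.05 in limma, 1006 probe sets differed between Bax-/- and wild-type mice over both populations. The count was 2372 with the NT3-/- Bax-/- groups left out of the fit. A further 11 newborn wild-type arrays of single ganglion levels and fewer cells were not fitted and serve below for comparison of levels.

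Bax is a pore-forming member of the BCL-2 family. Once activated by BH3-only proteins of the same family, it opens the outer mitochondrial membrane, and the released cytochrome c assembles with Apaf1 into the apoptosome that starts the caspase cascade. Developing sensory neurons that do not receive enough neurotrophin from their targets die by this route, and in mice without Bax such neurons persist. The BH3-only genes and the anti-apoptotic members act upstream of Bax, and the apoptosome and caspases act downstream of it.

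The median log2 intensity was between 6.10 and 6.15 on every array. The deposited values were RMA values, and RMA brings arrays to a like distribution, so this does not compare their raw signal. Pearson's r between the 2 arrays of a group was 0.978 for Bax-/- GFPon, 0.989 for Bax-/- GFPoff and 0.994 in both wild-type groups, so the Bax-/- GFPon arrays were the least alike. Bax has no probe set annotated to it alone, and the knockout was not checked on its own transcript. Xist, transcribed from the inactive X chromosome of females, read 39.7 and 51.9 in the GFPon and GFPoff arrays of Bax-/- replicate 1 and 4610 and 4360 in those of replicate 2. In wild-type mice the replicate 1 arrays read 2530 and 3580 and the replicate 2 arrays 77 and 117, so each of the 4 groups held 1 array with high and 1 with low Xist. Eif2s3y, on the Y chromosome, ran the other way. It read 1200 and 1310 in Bax-/- replicate 1 and 11 and 8.14 in replicate 2. In wild-type mice it read 11.4 and 9.04 in replicate 1 and 1030 and 1050 in replicate 2. The 2 arrays of a group therefore came from animals of different sex.

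Pvalb and Scn10a separated the gates in both genotypes. Pvalb, the gene of parvalbumin and a proprioceptor marker, read 9261 and 8509 in Bax-/- GFPon arrays, 7764 and 7173 in wild-type GFPon arrays and at most 78.3 in the GFPoff arrays. Scn10a, a sodium channel of pain-sensing neurons, read 1083 to 1311 in GFPoff and 20.2 to 41.7 in GFPon arrays. Neither differed between genotypes in limma over both populations (log2 difference 0.12 ± 0.39 (SE), adjusted p = 0.909, and 0.08 ± 0.37, adjusted p = 0.94). Other markers separated the gates less. The summed level of 10 nociceptor and thermoreceptor markers was 21520 to 23720 in GFPon and 47310 to 53660 in GFPoff arrays. Of the 5 measured proprioceptor markers, 10 cutaneous mechanoreceptor markers and 11 pan-sensory neuron genes, none passed the test between genotypes. Of the 10 nociceptor and thermoreceptor markers 2 did, Trpv1 and Gfra3.

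With population as a factor, 171 genes were higher in Bax-/- mice (0.94% of the 18193 genes tested) and 146 genes were lower (0.803%) at an adjusted p under 0.05 in limma. Over all probe sets, 699 were higher and 307 lower of 45037, and 703 and 492 after quantile normalization. Each single array left out moved this total of 1006 by over 1.5 times, to 2297 without Bax-/- GFPon replicate 1, 659 without its replicate 2 or without Bax-/- GFPoff replicate 1, 215 without Bax-/- GFPoff replicate 2, and 200 to 265 without any 1 wild-type array. The direction was therefore more one-sided among probe sets than among genes, each of which is represented by its brightest probe set. Among the dimmer probe sets of named genes, 389 were higher and 110 lower, which is 2.32% and 0.657% of 16752. The median log2 difference over all genes was -0.07. Tested alone, GFPon cells had 34 genes higher (0.187%) and 28 lower (0.154%) in Bax-/- mice. GFPoff cells had 14 genes higher (0.077%) and 8 lower (0.044%). In probe sets these were 225 and 80, which became 11 or 9 in GFPon cells without either wild-type GFPon array, 1151 without Bax-/- GFPon replicate 1, and 2 to 16 in GFPoff cells without any 1 GFPoff array.

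No gene was called for a difference between GFPon and GFPoff cells in its response to Bax loss (0% of genes called by limma for the interaction, 735 genes at an unadjusted p under 0.05, and 0 probe sets by the methods' analysis of variance after adjustment). With 2 arrays in each group, this does not show that the responses were alike. The smallest adjusted interaction p was 0.401. Without Bax-/- GFPon replicate 1 or 2 or wild-type GFPon replicate 2, 8, 2 and 1 probe sets were called. Across genes, which are not independent replicates, the log2 differences in the 2 populations had Pearson's r of 0.461, and of 0.847 over the 317 genes called. The populations of 1 replicate number may come from the same animals, which the labels do not state. They agreed in Xist, and their deviations from the group means correlated at 0.283 in Bax-/- and 0.197 in wild-type mice. With genotype and number as a random block (estimated correlation 0.0905), 703 probe sets were called in place of 1006, and 7 of 84 calls of named genes were lost. Of the 317 genes, 313 differed in the same direction in both populations, and for 298 (94%) the Bax-/- and wild-type arrays did not overlap in either population. Over all genes, 3726 (20.5%) had no such overlap. The calls were made on the mean of the differences in the 2 populations. The r of 0.847, the 313 genes and the share of 94% therefore describe the called genes and are no further test of them.

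**Figure D1:**
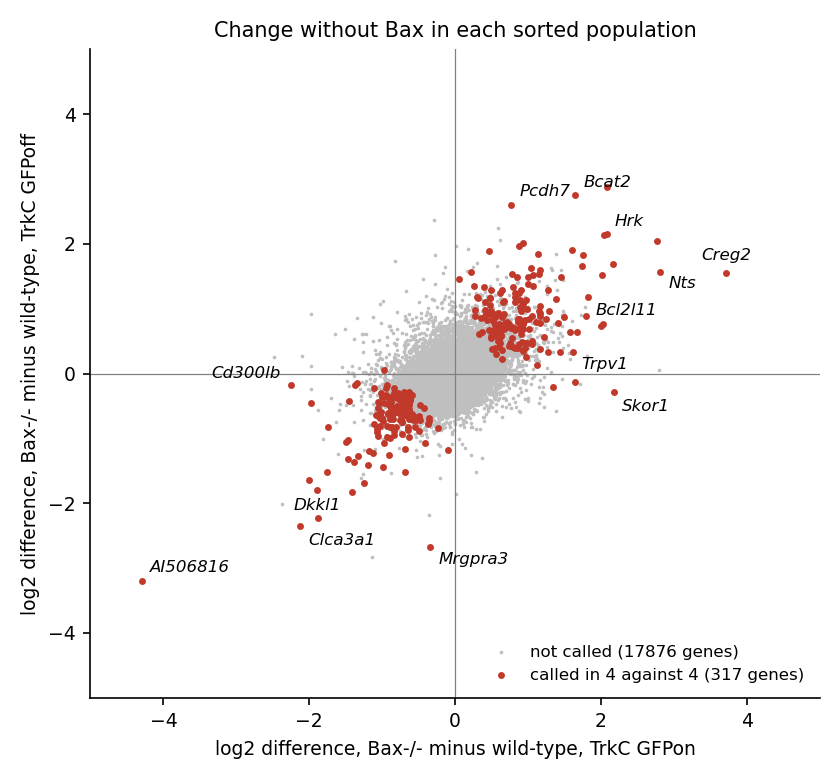
Log2 difference between Bax-/- and wild-type arrays in TrkC GFPon cells (horizontal axis) against TrkC GFPoff cells (vertical axis), 1 point per gene, with the 317 genes called in the 4 against 4 comparison in red. Most red points lie at the lower left or upper right, AI506816 is far out at -4.30 and -3.19, and Creg2 lies to the right with 3.72 in GFPon and 1.56 in GFPoff cells.

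The cell death genes that rose were the BH3-only genes Hrk and Bcl2l11 and the apoptosome gene Apaf1. Hrk, or harakiri, encodes a BH3-only protein known for its induction in sensory and sympathetic neurons deprived of neurotrophin. It read 149 and 172 in wild-type GFPon arrays, 598 and 763 in Bax-/- GFPon arrays, 117 and 132 in wild-type GFPoff arrays, and 421 and 720.2 in Bax-/- GFPoff arrays. Every Bax-/- array was above every wild-type array. The log2 difference was 2.11 ± 0.20 (SE, 4 arrays against 4; limma adjusted p = 0.000516), with 2.08 in GFPon (adjusted p = 0.00965) and 2.15 in GFPoff cells (adjusted p = 0.0134). A dimmer Hrk probe set differed by 0.11 (adjusted p = 0.814).

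Bcl2l11 encodes Bim, a BH3-only protein that binds all anti-apoptotic family members. Its values were 748 and 539 in wild-type GFPon, 1511 and 3305 in Bax-/- GFPon, 299.7 and 355 in wild-type GFPoff, and 584 and 944 in Bax-/- GFPoff arrays. The genotypes did not overlap within either population. The log2 difference was 1.5 ± 0.26 (adjusted p = 0.0158). Within a population it did not pass, with 1.82 in GFPon (adjusted p = 0.0601) and 1.19 in GFPoff cells (adjusted p = 0.3). Of 4 further probe sets of Bcl2l11, 1 rose by 0.86 (adjusted p = 0.0356) and the others differed by -0.22 to 0.55. The call was lost without Bax-/- GFPoff replicate 2, wild-type GFPon replicate 2 or either wild-type GFPoff array, with adjusted p of up to 0.0774.

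Apaf1, the scaffold of the apoptosome, read 313 and 366 in wild-type GFPon, 619 and 575 in Bax-/- GFPon, 214 and 293 in wild-type GFPoff, and 516 and 627 in Bax-/- GFPoff arrays. The lowest Bax-/- array was above the highest wild-type array. It rose by 1.00 ± 0.22 on the log2 scale (adjusted p = 0.0409), a call that no fit without any 1 of the 8 arrays kept and that was lost with the 2 populations of a replicate number as a random block (adjusted p = 0.0513). Its dimmer probe set differed by -0.25 (adjusted p = 0.662).

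The other measured family members did not pass the test. Those were the pore-forming relatives Bak1 (0.15) and Bok (-0.17), and the anti-apoptotic genes Mcl1 (0.11), Bcl2l2 (0.06), Bcl2l1 (-0.09), Bcl2l10 (-0.15) and Bcl2 (-0.16). The 7 remaining BH3-only genes differed by 0.15 for Bbc3, which encodes Puma, and by -0.06 to -0.22 for Bmf, Bad, Pmaip1, Bid, Bik and Bnip3. So 2 of 9 BH3-only genes were called, while the median of the list was -0.06 beside -0.07 over all genes. Of 14 caspase and apoptosome genes 1 was called, with a list median of 0.13. None of 12 genes of p53 and its targets or 10 genes of JNK signalling and axon degeneration was called, with medians of 0.02 and -0.01.

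**Figure D2:**
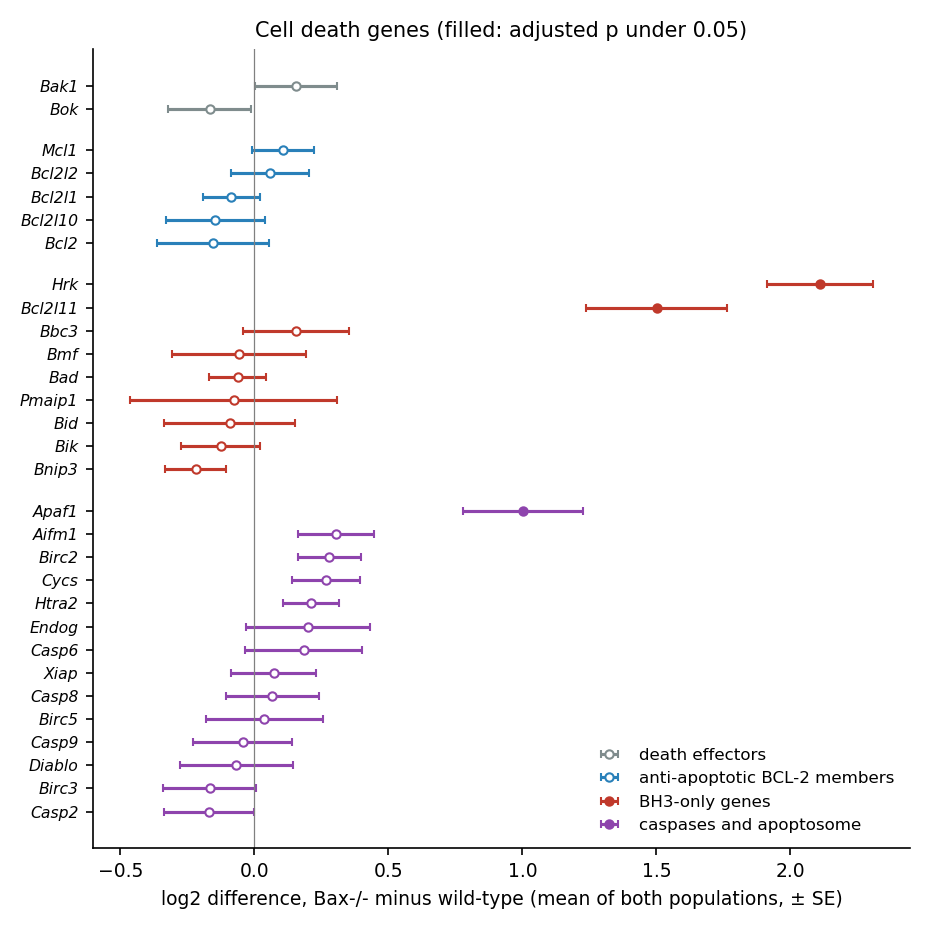
Log2 difference between Bax-/- and wild-type arrays averaged over both populations (horizontal axis, bars are the standard error) for the measured death effectors, anti-apoptotic BCL-2 members, BH3-only genes, and caspases and apoptosome genes, with filled points for an adjusted p under 0.05. Hrk, Bcl2l11 and Apaf1 are filled, at 2.11, 1.5 and 1.00.

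Hrk, Bcl2l11 and the neuropeptide gene Nts, described next, are 3 of 18 called genes that rose and stayed apart from every newborn array with Bax. This holds within each population and is described at the end. The promoters of these 3, chosen by hand from the 18, are shown. Each is the 250 bases before the RefSeq start site, 5′ to 3′ on the gene's strand, in build GRCm38.p6. Capitals mark matches, on either strand, to AP-1 (TGANTCA), a cyclic AMP response element (TGACGTCA), an ATF and Jun element (TGACATCA) and a FOXO element (GTAAACA). None of these patterns overlaps another in the matches shown. The Hrk promoter (chr5:118169514-118169763, plus strand) holds none of these letters, the Bcl2l11 promoter (chr2:128125788-128126037, plus strand) holds the FOXO element 227 bases before the start, and the Nts promoter (chr10:102490419-102490668, minus strand) holds TGAGTCA at 207 and TGACATCA at 67 bases before the start.
Hrk: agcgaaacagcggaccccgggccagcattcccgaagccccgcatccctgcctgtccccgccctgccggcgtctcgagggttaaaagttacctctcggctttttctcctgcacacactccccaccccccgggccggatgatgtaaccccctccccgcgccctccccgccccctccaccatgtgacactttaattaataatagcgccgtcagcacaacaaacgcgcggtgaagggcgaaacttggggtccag
Bcl2l11: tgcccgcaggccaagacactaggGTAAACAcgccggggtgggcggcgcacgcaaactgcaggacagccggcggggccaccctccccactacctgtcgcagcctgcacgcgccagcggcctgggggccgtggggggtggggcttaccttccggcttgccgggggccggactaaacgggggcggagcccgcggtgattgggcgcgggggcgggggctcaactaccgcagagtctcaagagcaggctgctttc
Nts: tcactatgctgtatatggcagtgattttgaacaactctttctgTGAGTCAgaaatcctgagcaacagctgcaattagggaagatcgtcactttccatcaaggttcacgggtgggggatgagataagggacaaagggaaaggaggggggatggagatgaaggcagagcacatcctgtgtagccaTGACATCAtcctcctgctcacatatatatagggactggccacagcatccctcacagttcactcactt
A second RefSeq start of Bcl2l11 (chr2:128127325-128127574, plus strand) had no match. The table held promoters for 259 of the 317 called genes. Of all 32851 promoters of this length, 6.75% hold AP-1, 1.55% the cyclic AMP element, 2.93% the ATF and Jun element and 3.17% the FOXO element. Among 170 promoters of genes that rose, 7, 3, 6 and 5 held them in that order, and among 154 promoters of genes that fell 6, 5, 5 and 7. A match is a description of letters, and its use was not measured.

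Nts encodes neurotensin, a neuropeptide. It read 38.1 and 33.2 in wild-type GFPon, 147 and 423 in Bax-/- GFPon, 123 and 114 in wild-type GFPoff, and 226 and 549.5 in Bax-/- GFPoff arrays. The genotypes did not overlap in either population, and in both the second Bax-/- array was the higher one. Nts rose by 2.19 ± 0.33 (adjusted p = 0.00683), with 2.81 in GFPon (adjusted p = 0.0271) and 1.57 in GFPoff cells (adjusted p = 0.265). It was the 1 gene called of 16 sensory neuropeptide genes, whose median difference was -0.09. Grp, gastrin-releasing peptide, rose in the test of GFPon cells (2.79, adjusted p = 0.0468; 0.05 in GFPoff cells), from 44.1 and 44.7 in wild-type to 691 and 137 in Bax-/- arrays. The 2 Bax-/- arrays were far apart for this gene, though both lay above wild-type.

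The gene with the smallest p was AI506816, named in the annotation by a clone identifier. It read 537 and 470.5 in wild-type GFPon, 26.1 and 24.97 in Bax-/- GFPon, 325 and 285 in wild-type GFPoff, and 32.3 and 34.3 in Bax-/- GFPoff arrays. The 4 Bax-/- arrays sat together at a low level in both populations. It fell by 3.75 ± 0.14 on the log2 scale (adjusted p = 9.15e-08), by 4.30 in GFPon (adjusted p = 1.9e-06) and by 3.19 in GFPoff cells (adjusted p = 3.58e-05). It was the only gene called in both populations separately under every fit that left out 1 array.

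Creg2, which encodes a secreted glycoprotein of the CREG family, read 81.0 and 66.7 in wild-type GFPon, 867 and 1080 in Bax-/- GFPon, 31.9 and 24.2 in wild-type GFPoff, and 75.2 and 88.7 in Bax-/- GFPoff arrays. It rose by 3.72 ± 0.23 in GFPon (adjusted p = 1.91e-05) and by 1.56 ± 0.23 in GFPoff cells (adjusted p = 0.0213). The difference of 2.16 ± 0.32 between the populations was among the 6 smallest interaction p-values and did not pass (adjusted p = 0.401). Its levels in the other newborn arrays overlapped between mice with and without Bax, as given with those arrays.

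Clca3a1, of the calcium-activated chloride channel regulator family, fell in both populations by about the same amount. It read 135 and 133 in wild-type GFPon, 27.0 and 34.9 in Bax-/- GFPon, 120.4 and 143 in wild-type GFPoff, and 33.5 and 19.6 in Bax-/- GFPoff arrays. The log2 difference was -2.24 ± 0.18 (adjusted p = 0.000168). B830008H07Rik read 548 to 757 in the 4 wild-type and 126 to 207 in the 4 Bax-/- arrays and fell by 1.85 ± 0.18 (adjusted p = 0.00056). Galt, an enzyme of galactose breakdown, read 763 to 1076 in wild-type and 371 to 597 in Bax-/- arrays and fell by 0.96 ± 0.12 (adjusted p = 0.00234). Zfp658, a zinc finger gene, rose by 1.80 ± 0.14 (adjusted p = 0.000133), from 21.7 and 23.1 to 63.5 and 90.2 in GFPon and from 49.9 and 58.3 to 177 and 208 in GFPoff arrays. With Hrk, AI506816, Creg2, Bcat2 and Dkkl1, these make the 9 genes called in both populations separately. Bcat2 and Dkkl1 are described with the neighbours of Bax.

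**Figure D3:**
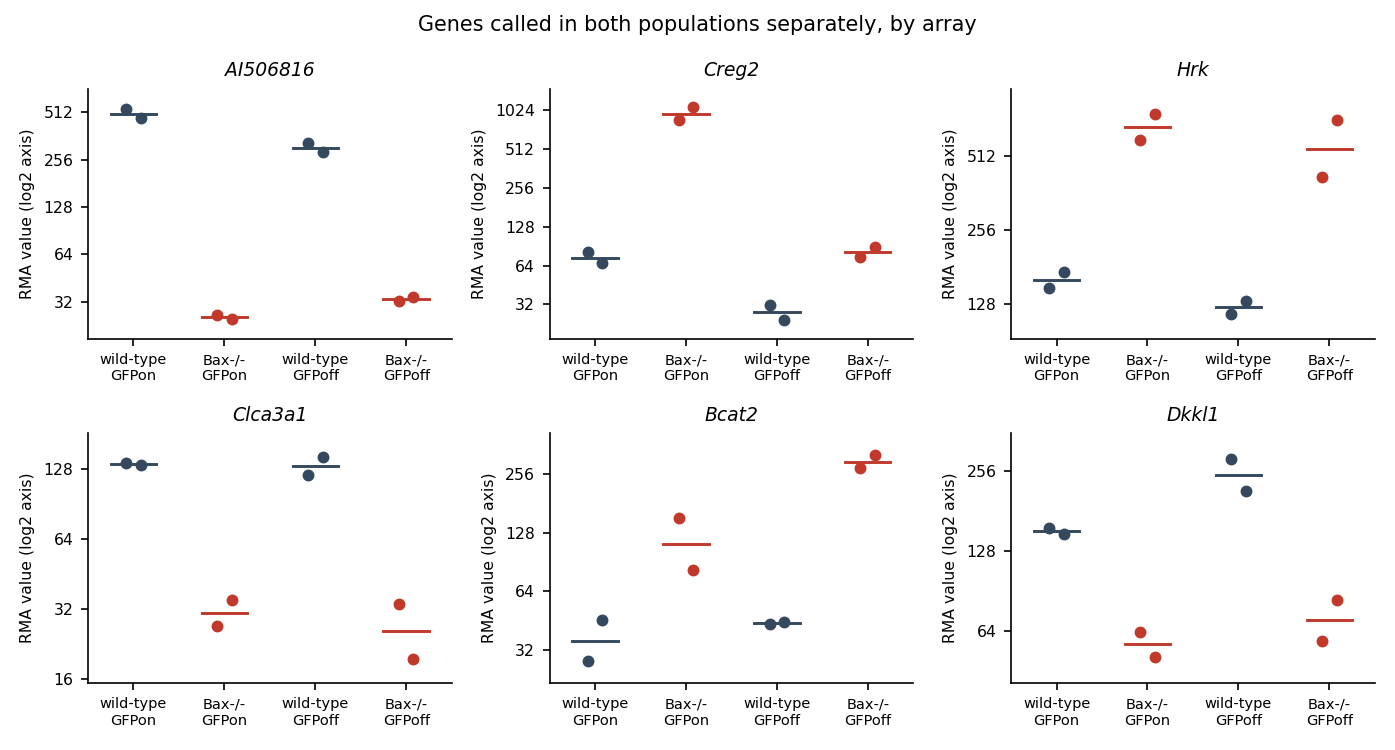
RMA values on a log2 axis in each of the 8 arrays (points) with the geometric mean of each group (lines) for 6 of the 9 genes called in both populations separately, wild-type in dark and Bax-/- in red. AI506816, Clca3a1 and Dkkl1 are lower and Creg2, Hrk and Bcat2 higher in every Bax-/- array of each population.

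The other largest rises were spread over several kinds of genes. H2-T24, a non-classical histocompatibility gene, read 18.4 to 49.1 in wild-type and 86.1 to 247 in Bax-/- arrays and rose by 2.40 ± 0.35 (adjusted p = 0.00615). AA388235 rose by 2.48 ± 0.50 (adjusted p = 0.0281), a call lost with the 8 arrays fitted alone and without either Bax-/- GFPoff array, wild-type GFPon replicate 1 or wild-type GFPoff replicate 1 (adjusted p of up to 0.112). Chac2, which encodes an enzyme that degrades glutathione, read 235 to 297 in wild-type and 733 to 948 in Bax-/- arrays and rose by 1.70 ± 0.22 (adjusted p = 0.00348). Ppp1r17, which encodes a phosphatase inhibitor, read 11.1 to 12.7 in wild-type and 26.0 to 59.0 in Bax-/- arrays and rose by 1.76 ± 0.39 (adjusted p = 0.0391; 0.0537 with the random block). Among genes of the extracellular matrix, Col6a1, a chain of collagen VI, read 106 and 95.7 in wild-type GFPon, 296 and 552 in Bax-/- GFPon, 319 and 208 in wild-type GFPoff, and 496 and 1100 in Bax-/- GFPoff arrays. It rose by 1.77 ± 0.26 (adjusted p = 0.00676), and Col22a1 (2.09, adjusted p = 0.0246) and Cnmd, chondromodulin (1.92, adjusted p = 0.0265), rose too. Col6a1 and Cnmd were higher in replicate 2 of each Bax-/- population, the one with high Xist, as Nts was.

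Those matrix genes are also made by fibroblasts, so the marker sums are given beside them. The summed level of 10 fibroblast and meningeal markers was 2342 to 2912 in Bax-/- GFPon and 1681 to 2015 in wild-type GFPon arrays, and 3318 to 5317 against 3710 to 4301 in GFPoff arrays. In GFPon arrays the sums of 14 Schwann and satellite glia markers (13650 to 17500 against 11540 to 13360), of 11 endothelial and pericyte markers (914 to 1222 against 736 to 908) and of 13 neural progenitor and immature neuron genes (15030 to 17670 against 11160 to 11790) were higher in Bax-/- mice as well, without overlap. No fibroblast or endothelial marker passed the test, and of the glial list only Gfra3 did, which pain-sensing neurons also express. The part of these sums in the results was not tested, and in sorted bulk RNA a difference in the number of cells of a type and in the RNA per cell cannot be told apart.

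Among the other largest falls were Zfp626 (-2.05, adjusted p = 0.0138) and Atp10d, which encodes a phospholipid flippase subunit (-1.82, adjusted p = 0.0196). Cnnm4, a metal ion transporter (-1.64, adjusted p = 0.0453), and Dpep1, a membrane dipeptidase (-1.47, adjusted p = 0.0496), fell as well. In single-level wild-type arrays, which have Bax, Zfp626 read 12.4 to 19.1 in GFPon and 15.2 to 38.1 in GFPoff cells. Those ranges overlap the Bax-/- values of 15 to 16.3 and 14.3 to 19.4. The calls of Cnnm4 and Dpep1 were lost with the random block (adjusted p = 0.0565 and 0.0617). Ehmt1, a histone H3 lysine methyltransferase, read 2069 to 2879 in wild-type and 762 to 1125 in Bax-/- arrays and fell by 1.4 ± 0.28 (adjusted p = 0.0288). Cpb1, Smim38 and 2310030G06Rik fell by 1.38, 1.30 and 1.30 (adjusted p = 0.0169, 0.0105 and 0.00375). The 20 named genes called in this comparison that have further probe sets have 36 of them, of which 5 were called, so a call rested mostly on the brightest probe set.

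In GFPon cells, 34 genes rose and 28 fell, and 28 and 23 of them differed in the same direction in GFPoff cells (82.4% and 82.1%, against 39.5% and 60.5% of all genes). Among those that rose are 2 genes known from pain-sensing neurons. Trpv1, the capsaicin and heat receptor, read 26.2 and 22.98 in wild-type and 68.8 and 81.7 in Bax-/- GFPon arrays. It rose by 1.61 ± 0.24 (adjusted p = 0.0149), and both values are far below those of GFPoff arrays, which were 859 and 950.1 in wild-type and 932 and 1387 in Bax-/- mice (0.33, adjusted p = 0.662). Gfra3, the artemin receptor, read 657 and 559 in wild-type and 1635 and 1446 in Bax-/- GFPon arrays, a rise of 1.34 ± 0.17 (adjusted p = 0.00965), and 3754 to 4812 in the 4 GFPoff arrays. The genotypes did not overlap for either gene in GFPon cells.

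Skor1, a transcriptional corepressor, read 77.8 and 44.6 in wild-type and 239.5 and 296 in Bax-/- GFPon arrays and 21.4 to 32.4 in GFPoff arrays. It rose by 2.18 ± 0.27 in GFPon cells (adjusted p = 0.007). Zbtb20, a zinc finger transcription factor, read 129 and 131 in wild-type and 344 and 785 in Bax-/- GFPon arrays and rose by 2.00 ± 0.30 (adjusted p = 0.0171). Its level was higher in GFPoff arrays, at 1190 to 1640 in wild-type and 2070 to 2620 in Bax-/- mice. Over both populations Zbtb20 was called too (1.37, limma adjusted p = 0.00937). Myh8, the perinatal myosin heavy chain, rose by 1.65 (adjusted p = 0.007) at levels of 15.4 to 62.3, and Syt7, a calcium sensor of vesicle release, rose by 1.08 (adjusted p = 0.032). The summed level of 10 nociceptor and thermoreceptor markers was 23310 to 23720 in Bax-/- and 21520 to 22140 in wild-type GFPon arrays, and 47310 to 49750 against 52530 to 53660 in GFPoff arrays. In GFPon cells 2 of those 10 markers passed the test, Trpv1 and Gfra3, with a list median of 0.29 beside -0.05 over all genes. The part of this sum in the Trpv1 and Gfra3 rises was not tested.

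Of the genes that fell in GFPon cells, Cd300lb, an immune receptor of myeloid cells, read 77.1 and 83.6 in wild-type and 17.8 and 15.9 in Bax-/- GFPon arrays and 15.6 to 21.9 in the 4 GFPoff arrays. It fell by 2.25 ± 0.26 (adjusted p = 0.00572), and the sum of 12 macrophage and complement markers was 433 to 489.7 in Bax-/- and 521 to 546 in wild-type GFPon arrays, with none of the 12 called and their part in the fall not tested. Ntsr1, a neurotensin receptor, read 145 and 148 in wild-type and 57.8 and 56.0 in Bax-/- GFPon arrays and fell by 1.37 ± 0.22 (adjusted p = 0.0241). It read 32.1 to 144 in single-level wild-type GFPon arrays, which have Bax, and 34.9 to 35.6 in NT3-/- Bax-/- GFPon arrays. The Ntsr1 call was lost with the 8 arrays fitted alone and with array weights. Hapln4, a link protein of perineuronal matrix, fell by 1.46 (adjusted p = 0.00398). Camk2n1, an inhibitor of calmodulin kinase II, fell by 1.34 (adjusted p = 0.0378). Methig1 (-1.97), Steap1 (-1.49), Cited4 (-1.42) and Lgals9 (-1.38) fell as well (adjusted p = 0.0442, 0.0394, 0.0463 and 0.0323).

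In GFPoff cells, 14 genes rose and 8 fell. Of them 13 and 8 differed in the same direction in GFPon cells (92.9% and 100%, against 43.1% and 56.9% of all genes). Pcdh7, a protocadherin, read 28.4 and 25.8 in wild-type and 186 and 145 in Bax-/- GFPoff arrays, a rise of 2.60 ± 0.32 (adjusted p = 0.00989), and 498 to 1303 in the 4 GFPon arrays. Vwc2, a secreted inhibitor of bone morphogenetic proteins, rose by 1.45 ± 0.18 (adjusted p = 0.00969), from 95.2 and 84.2 to 242 and 247.5, against 434 to 528 in GFPon arrays. Kcnq3, a subunit of the M-type potassium channel, rose by 1.30 ± 0.20 (adjusted p = 0.0264), from 89.9 and 80.4 to 246 and 179, against 1715 to 2091 in GFPon arrays. For these 3 genes the Bax-/- GFPoff arrays stayed below every GFPon array.

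The summed signal of the 5 proprioceptor markers in GFPoff arrays was 377.5 and 388 in Bax-/- and 227 and 258 in wild-type mice, beside 15650 to 19100 in GFPon arrays. Ntrk3, which encodes TrkC, read 115 and 171 in Bax-/- and 61.8 and 79.3 in wild-type GFPoff arrays and did not pass (1.00, adjusted p = 0.282). Runx3, a transcription factor that defines proprioceptors, read 16.1 to 22.2 in the GFPoff arrays of both genotypes, where Pvalb read 41.4 to 78.3. The part of this sum in the rises of Pcdh7, Vwc2 and Kcnq3 was not tested. Adcy7, an adenylate cyclase (2.01, adjusted p = 0.0192), and Klk8, the protease neuropsin (1.56, adjusted p = 0.0405), also rose in GFPoff cells. Tppp (1.35, adjusted p = 0.0196), Kank4 (1.33, adjusted p = 0.0265) and Abhd3 (1.24, adjusted p = 0.0453) rose there too. In single-level wild-type GFPoff arrays, Tppp read 60.4 to 171, Kank4 132 to 419 and Abhd3 248 to 642. These overlap the Bax-/- GFPoff ranges of 99.7 to 106, 216 to 230 and 232 to 260. Klk8 read 83.8 to 97.3 and Tppp 46.9 to 47.3 in NT3-/- Bax-/- GFPoff arrays. The pooled wild-type GFPoff arrays read 106 to 122 and 36.4 to 44.9. Adcy7 read 2830 to 3040 in NT3-/- Bax-/- and 84.2 to 260 in single-level wild-type GFPoff arrays.

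Among the genes that fell in GFPoff cells were the itch receptor genes Mrgpra3 and Mrgpra4. Mrgpra3, which marks itch-sensing neurons and encodes the chloroquine receptor, read 365 and 223 in wild-type and 45.2 and 44.2 in Bax-/- GFPoff arrays. That is the range of GFPon arrays, which read 31.7 to 51.9 in both genotypes. It fell by 2.67 ± 0.26 (adjusted p = 0.00332), and the difference from GFPon cells, 2.34 ± 0.36, did not pass (adjusted p = 0.401). Mrgpra4, a related receptor, fell by 1.18 ± 0.20 (adjusted p = 0.0378), from 36.7 and 30.8 to 14.55 and 15.2. The 2 genes have near-identical relatives, so their probes may share signal. Of the 10 nociceptor and thermoreceptor markers none was called in GFPoff cells and 2 had a difference above 0, with a median of -0.14 beside -0.07 over all genes.

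**Figure D4:**
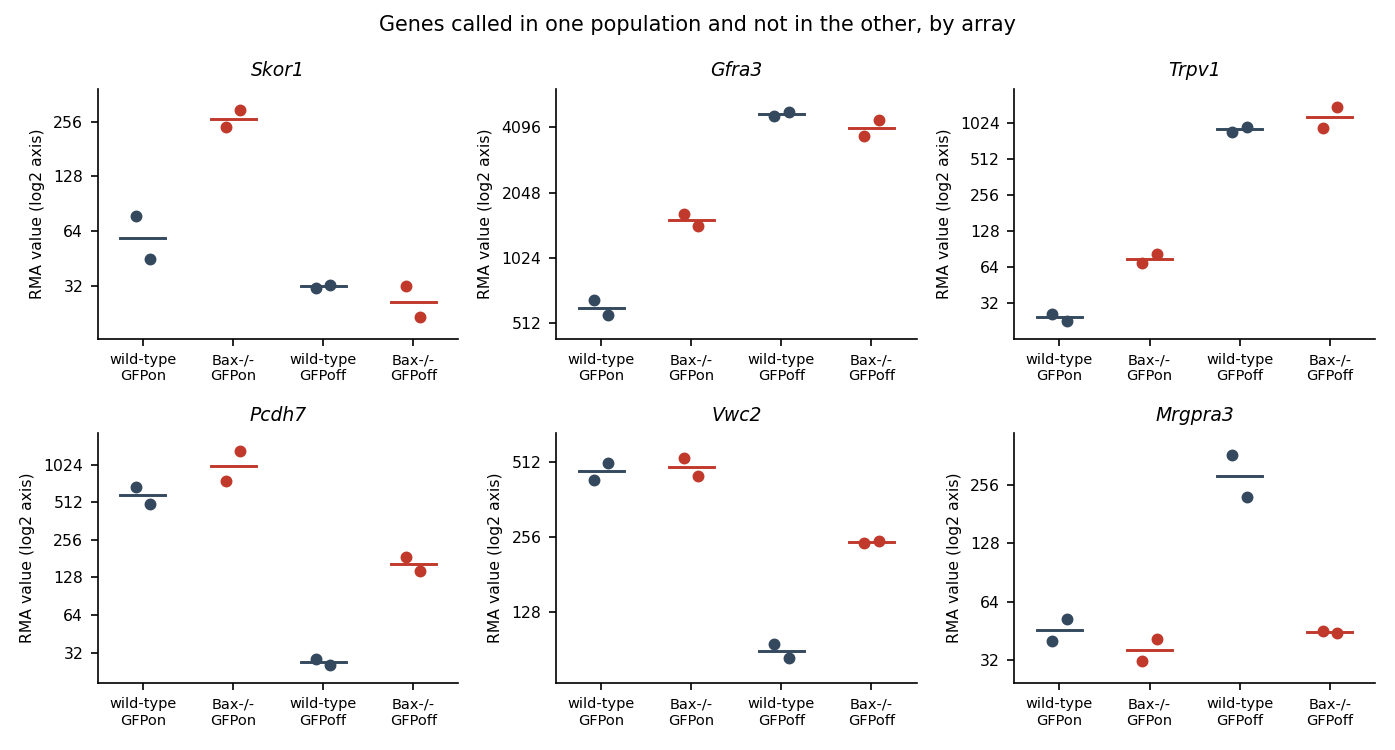
RMA values on a log2 axis in each of the 8 arrays (points) with the geometric mean of each group (lines) for 3 genes called in GFPon and not in GFPoff cells (Skor1, Gfra3, Trpv1) and 3 called in GFPoff and not in GFPon cells (Pcdh7, Vwc2, Mrgpra3). Trpv1 in Bax-/- GFPon arrays reached 81.7 at most and stayed below the GFPoff arrays, and Mrgpra3 in Bax-/- GFPoff arrays was at the GFPon level.

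In the sterol synthesis list, the genes of the cholesterol pathway, all 13 measured members had a difference above 0, beside 38.7% of all genes. The median was 0.33, beside -0.07, and 3 members passed the test, where 1.74% of all genes did. Insig1, which retains the sterol sensor in the endoplasmic reticulum, read 336 and 217 in wild-type GFPon, 629 and 587 in Bax-/- GFPon, 369 and 418 in wild-type GFPoff, and 529 and 491 in Bax-/- GFPoff arrays, and rose by 0.77 ± 0.15 (adjusted p = 0.025). Idi1, isopentenyl diphosphate isomerase, rose by 0.74 ± 0.17 (adjusted p = 0.0433; 0.0613 with the random block). Dhcr7, the last enzyme of cholesterol synthesis, rose by 0.61 ± 0.12 (adjusted p = 0.0285). In GFPon cells the list median was 0.61 and Dhcr7 (0.97, adjusted p = 0.0371) and Insig1 (1.17, adjusted p = 0.0381) were called. The calls depended on every array, since fits without 1 of the 8 arrays called 0 to 2 of the 13. This was not so in the second genotype without Bax, where 3 of the 13 were above 0 in NT3-/- Bax-/- minus mlcNT3 arrays, with a median of -0.275. Idi1 read 2380 to 4140 in GFPon and 4180 to 5380 in GFPoff arrays of single-level wild-type samples, which spans or exceeds the Bax-/- values, and Dhcr7 read 818 to 1550 and 1440 to 1880 there. None of the 13 separated the newborn arrays with and without Bax.

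In the neurotrophin and GDNF receptor list, Sort1, which encodes the co-receptor sortilin of the p75 receptor, read 1768 to 2133 in wild-type and 1107 to 1400 in Bax-/- arrays and fell by 0.61 ± 0.12 (adjusted p = 0.0274). Sort1 read 879 to 1200 in NT3-/- Bax-/- arrays. In single-level wild-type arrays, which have Bax, it read 1320 to 1530 in GFPon and 1060 to 1200 in GFPoff cells, overlapping the Bax-/- values. Sox2, a transcription factor of progenitors and satellite glia, read 118 to 148 in wild-type and 190 to 332.5 in Bax-/- arrays and rose by 1.03 ± 0.21 (adjusted p = 0.032), 1 of 13 progenitor genes. Syp, synaptophysin, was the 1 called of 24 genes of transmitter release and rose by 0.54 (adjusted p = 0.0317). A dimmer Syp probe set was called in the opposite direction, at -0.62 (limma adjusted p = 0.0406). In GFPon cells the brightest probe set read 1740 to 1810 in Bax-/- and 1240 to 1290 in wild-type arrays. It read 1840 to 2360 in single-level wild-type arrays, which have Bax, and 1080 to 1300 in NT3-/- Bax-/- arrays. Hoxd9 fell by 0.84 (adjusted p = 0.0234), 1 of 15 Hox genes. In single-level wild-type arrays Sox2 read 29.9 to 425 in GFPon and 186 to 420 in GFPoff cells, and Hoxd9 209 to 842 and 145 to 690. These ranges overlap the Bax-/- values in both populations. In NT3-/- Bax-/- arrays Sox2 read 56.8 to 93 in GFPon and 881 to 1060 in GFPoff cells, and Hoxd9 509 to 780 and 415 to 437.

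No member was called by limma over both populations among 19 nerve injury and regeneration genes, 16 immediate early genes, 15 ERK target genes, 12 unfolded protein response genes, 9 heat shock genes, 15 cell division genes, 13 interferon genes, 10 sodium channel, 20 potassium channel and 26 ionotropic receptor genes, 38 axon guidance genes, 30 oxidative phosphorylation genes, or 13 genes of mitochondrial dynamics. Their medians lay between -0.11 and 0.22. Over the 24 lists without a call, 56 of 320 genes had an unadjusted p under 0.05 (17.5%, beside 18.1% of all genes). Atf3, the transcription factor induced in injured sensory neurons, read 90.7 and 58.2 in wild-type GFPon, 133 and 195 in Bax-/- GFPon, 162 and 61.6 in wild-type GFPoff, and 193 and 371 in Bax-/- GFPoff arrays, and did not pass (1.28, adjusted p = 0.0606). Piezo2 and Pbx3 were picked out after their values were seen. Piezo2, the mechanically gated channel of touch and proprioception, read 664 and 697 in wild-type GFPon, 2190 and 1660 in Bax-/- GFPon, 564 and 604 in wild-type GFPoff, and 1160 and 992 in Bax-/- GFPoff arrays and rose by 1.18 ± 0.17 (adjusted p = 0.00494). In the other genotype without Bax, which also lacks NT3, Piezo2 went the other way, at 33.4 and 39.4 in GFPon arrays against 908 and 693 in mlcNT3 mice (log2 difference -2.43 over both populations, adjusted p = 1.42e-06). Pbx3, a homeodomain cofactor, rose by 1.00 (adjusted p = 0.00438).

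A knockout allele carries the chromosome segment of the line in which it was made, so genes beside Bax were described by position. Of the 80 genes nearest to Bax on chromosome 7, 40 on each side in the gene order of GRCm38.p6, 56 were measured and 2 were called, Bcat2 upward and Dkkl1 downward (3.57%, beside 1.74% of all genes). Both were called in GFPon and in GFPoff cells separately as well, where 0.341% and 0.121% of all genes were called. The median of the 56 genes was -0.11. Bcat2, the mitochondrial branched-chain aminotransferase, lies 8 genes from Bax and read 28.1 and 45.3 in wild-type GFPon, 152 and 82.1 in Bax-/- GFPon, 43.5 and 44.5 in wild-type GFPoff, and 275 and 320 in Bax-/- GFPoff arrays. It rose by 2.20 ± 0.21 (adjusted p = 0.00056). In GFPoff cells Bcat2 read 72.4 to 86 in NT3-/- Bax-/- arrays and 62.6 to 93.1 in single-level wild-type arrays, which overlap. In GFPon cells these read 98 to 143 and 52.7 to 60.5, without overlap. Dkkl1, a secreted dickkopf-like protein, lies 20 genes from Bax and read 156 and 148 in wild-type GFPon, 63.4 and 51.2 in Bax-/- GFPon, 284 and 216 in wild-type GFPoff, and 58.7 and 84.0 in Bax-/- GFPoff arrays. It fell by 1.62 ± 0.20 (adjusted p = 0.00223).

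With 80 genes on each side, 111 were measured and 4 were called, which added Nosip at 41 genes (-0.65, adjusted p = 0.0334) and Uevld at 73 genes (0.74, adjusted p = 0.0406). Further away on the chromosome lie Mrgpra3 at 98, Mrgpra4 at 110, Klk8 at 138 and Zfp658 at 151 genes. Chromosome 7 as a whole had 28 of 1420 measured genes called (1.97%) and ranked 7 among chromosomes. A difference in the segment's strain of origin can change a transcript's level or its fit to a probe, and these cannot be told apart from an effect of Bax loss in these mice.

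**Figure D5:**
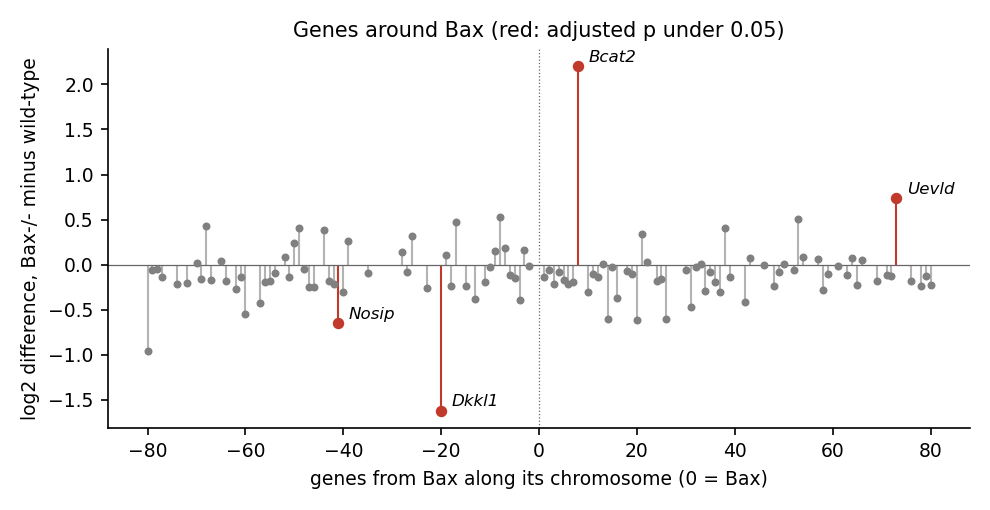
Log2 difference between Bax-/- and wild-type arrays over both populations (vertical axis) for the measured genes up to 80 genes from Bax, in order along the chromosome (horizontal axis, 0 is Bax), with called genes in red. Bcat2 (2.20) and Dkkl1 (-1.62) stand out near the centre, and Nosip and Uevld are the other 2 called.

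The remaining 19 newborn arrays of the series bear on the same genes, since 4 of them come from a second Bax-null genotype and the rest have Bax intact. These are NT3-/- Bax-/- mice and mlcNT3 mice, in which a transgene adds NT3 in muscle, with 4 arrays each, and wild-type single-level (L1 or L5) samples of about 100 cells, with 11 arrays. In the direct difference of NT3-/- Bax-/- minus mlcNT3 arrays, which shares no array with the main comparison, 133 of the 171 genes that rose were positive (77.8%, beside 46.1% of all genes) and 123 of the 146 that fell were negative (84.2%, beside 53.9%). NT3 differs in that contrast too, and its GFPoff arrays differ in marker sums for fibroblasts (38410 to 55110 without NT3 and Bax against 4196 to 5299), glia (42640 to 47850 against 18780 to 22130) and endothelium (6251 to 7193 against 2222 to 2603). The part of these in the shares was not tested.

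Among the other arrays with Bax, those of mlcNT3 mice lay nearer to the pooled wild-type than to the Bax-/- mean for 144 of the 171 genes that rose and 124 of the 146 that fell (84.2% and 84.9%). The wild-type single-level arrays did so for 68 and 73 (39.8% and 50%). Chac2 is an example, at 235 to 297 in the pooled wild-type arrays, 733 to 948 in Bax-/- arrays, and at 664 to 852 in mlcNT3 and 777 to 1330 in single-level wild-type arrays, where Bax is intact. Creg2 in GFPon cells was at 308 to 436 in single-level wild-type arrays, and at 70.9 and 93.0 in NT3-/- Bax-/- arrays, which lack Bax. Clca3a1 was at 77.6 and 72.2 in GFPon and 25.7 and 28.9 in GFPoff arrays of mlcNT3 mice, and at 116 and 138 in GFPoff arrays of NT3-/- Bax-/- mice. Zfp658 was at 55.4 to 90.9 in GFPon and 146 to 210 in GFPoff arrays of single-level wild-type samples, the range of the Bax-/- arrays. In GFPoff cells Pcdh7 was at 94.2 to 259 in single-level wild-type arrays, which spans the 145 and 186 of the Bax-/- arrays. Ehmt1 was at 1514 to 4072 in NT3-/- Bax-/- arrays, the wild-type level, and at 501 to 1030 in single-level wild-type GFPon arrays, around the Bax-/- level. Camk2n1 in GFPon cells was at 1385 and 1099 in NT3-/- Bax-/- and 296 to 470 in single-level wild-type arrays, against 334 and 436 in Bax-/- arrays. Cnnm4 was at 289 to 468 in GFPon and 257 to 327 in GFPoff arrays of single-level wild-type samples, and AA388235 at 87.7 to 148 and 318 to 455, in both cases within or overlapping the Bax-/- range. Of the 55 named genes called in the 4 against 4 comparison, 45 overlapped between mice with and without Bax once all newborn arrays were included, these among them, and 10 did not. Cell number and segment also differ between pooled and single-level arrays, and their part was not tested.

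The genes called in 1 population were also split by these arrays. Mrgpra3 in GFPoff cells read 39.2 and 44.8 in NT3-/- Bax-/- arrays, 289 and 362 in mlcNT3 arrays and 119 to 723 in single-level wild-type arrays, so all 4 arrays without Bax lay below all arrays with Bax. Skor1 in GFPon cells read 439 and 389 in NT3-/- Bax-/- arrays and 33.6 to 60.5 in mlcNT3 and single-level arrays. Zbtb20 in GFPon cells read 1459 and 1545 without NT3 and Bax and 64.2 to 145 in those arrays with Bax. Trpv1 in GFPon cells read 55.5 and 62.5 without NT3 and Bax and 21.6 to 55.1 with Bax, so that the ranges nearly touched. Cd300lb in GFPon cells read 12.2 to 33.2 in single-level wild-type arrays, at the level of Bax-/- arrays, and 121 and 182 in mlcNT3 arrays. Gfra3 in GFPon cells reached 1460 in single-level arrays, and Vwc2 and Kcnq3 in GFPoff cells reached 366 and 293, so each overlapped with the arrays without Bax.

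Over all 27 newborn arrays, 8 without and 19 with Bax, 41 of the 317 called genes (12.9%) did not overlap between the genotypes in either population, 23 lower and 18 higher without Bax. Over all genes 139 (0.764%) did so. The 8 arrays of the main comparison are among the 27, so these shares are a description. AI506816 ranged from 25 to 41 without Bax and from 443 to 1190 with Bax in GFPon arrays, and from 23.7 to 34.3 against 285 to 902 in GFPoff arrays. Hrk ranged from 598 to 8830 without and from 104 to 274 with Bax in GFPon, and from 420.5 to 4610 against 77.1 to 235 in GFPoff arrays. Nts ranged from 147 to 8890 against 33.2 to 91.4 in GFPon and from 226 to 3570 against 100.5 to 173 in GFPoff arrays. For Hrk and Nts the upper ends are the arrays that also lack NT3.

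Bcl2l11 was among the 41 by a narrow margin, at 1511 to 4357 without and 324 to 1030 with Bax in GFPon and at 584 to 2143 against 244 to 581 in GFPoff arrays. The list also held Dkkl1, Nosip and Uevld from the vicinity of Bax, B830008H07Rik, Galt, Atp10d and Ppp1r17. Others on it were Gabarap, an autophagy protein that binds to the autophagosome membrane (2620 to 3550 with and 1730 to 2210 without Bax in GFPon arrays), Kdm6b, a histone H3 lysine demethylase (303 to 598 with and 840 to 2540 without), Hmgb2, a chromatin protein (87 to 137 with and 227 to 1040 without), and Ggps1, geranylgeranyl diphosphate synthase (347 to 634 with and 861 to 1100 without). These last 4 were picked out after their values were seen.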

How the data were processed

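RNA of sorted cells was amplified and hybridized to Affymetrix Mouse Genome 430 2.0 arrays. The authors deposited RMA intensity values on a linear scale, made in R 2.9 with the affy package, with MAS5 detection calls named in the submitters' processing notes. The sources used here do not give which arrays were normalized together. Here the deposited intensity values were converted to log2, since the design had assumed log2 values. Of 45101 probe sets, 64 controls were left out. Of the rest 34945 were annotated to 1 gene, 932 to several and 9160 to none, and a gene was represented by its brightest probe set over 16 arrays. Array number and brightness over background limit the precision.

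Group means of 16 pooled newborn arrays (8 groups of 2) were fitted with lmFit and eBayes in limma 3.58.1 (R 4.3.3), with Benjamini-Hochberg adjustment over 45037 probe sets and a threshold of 0.05. The script was tested on simulated data. The members and lists (35 lists, 444 of 494 genes measured) were chosen with earlier results of these data known. Named genes were, by rule, up to 12 largest rises and falls per contrast without overlap of arrays, the 6 smallest p-values where fewer than 6 were called, all BCL-2 family members, up to 5 called members of other lists, called neighbours of Bax, up to 6 genes called in both populations, and 7 marker genes. Gene order and promoters were from RefSeq GRCm38.p6. Alternatives were the arrays fitted, replicate blocks, normalization, filters, array weights, leaving out each array, and the methods' analysis of variance and thresholds.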

Additional observations from a re-analysis of the deposited data

How the results depend on the processing

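The counts of called probe sets depended on the arrays fitted and on the test. For both populations together 1006 probe sets were called, and the count was 2372 with 12 arrays (without the NT3-/- Bax-/- groups), 2228 with array weights, 200 to 2297 when 1 array was left out, 5 with the methods' analysis of variance after adjustment, and 587 at the study's thresholds of an unadjusted p and a fold. For GFPon cells (225) the same alternatives gave 771, 149, 9 to 1151, 0 and 924, and for GFPoff cells (80) 209, 1065, 2 to 115, 0 and 584. Without wild-type GFPon replicate 1 or 2 the GFPon count was 11 or 9, and without wild-type GFPoff replicate 1 the GFPoff count was 2. For the interaction (0) leaving out 1 array gave 0 to 8, with 8 without Bax-/- GFPon replicate 1, and the study's thresholds gave 325. Among the 80 genes nearest to Bax (2) the counts were 5 with 12 arrays, 5 with array weights, 2 to 4 with 1 array left out, 0 with the analysis of variance and 4 with 80 genes on each side. Over all gene lists (13) they were 21 with the 8 arrays alone, 36 with 12 arrays, 29 with array weights, 2 to 23 with 1 array left out and 0 with the analysis of variance. The cause of these shifts was not tested. Quantile normalization called 703 probe sets higher and 492 lower.

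Of the 317 genes called, 317 kept their direction without any 1 of the 8 arrays and 35 kept the call in all 8 such fits (22 higher and 13 lower). Of the 62 in GFPon cells 2 did so, and of the 22 in GFPoff cells 1. The replicate numbers did not pair the genotypes (correlations of deviations 0.0805 and -0.109). With the 2 populations of a number as a random block 703, 215, 80 and 0 probe sets were called for both populations, GFPon, GFPoff and the interaction. With the number as a block these were 1246, 276, 88 and 0. With high or low Xist as the block, a split by sex chosen after seeing the data, they were 996, 191, 67 and 0. Over all named results and alternatives, 1669 values stayed on their side of the threshold, 502 lost the call and 6 gained it. The 11 that changed sign were all uncalled values with 1 array left out. Over those fits Bcl2l2 ranged from -0.0685 to 0.183, Pmaip1 from -0.2124 to 0.0573, Bmf from -0.2366 to 0.118, Bid from -0.2325 to 0.0476, Bad from -0.1404 to 0.0142, Pvalb from -0.113 to 0.3478 and Scn10a from -0.185 to 0.3363.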

Other observations

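Of the probe sets annotated to no gene or to several, 139 were higher and 51 lower in Bax-/- mice (1.38% and 0.505% of 10092), and they were not examined further. Chodl, a membrane lectin picked out after its values were seen, read 501 and 527 in wild-type GFPon and 86.6 and 98.6 in Bax-/- GFPon arrays, and did not pass the test there (-2.48, limma adjusted p = 0.102). In NT3-/- Bax-/- GFPon arrays it read 115 and 531, so that 1 array without Bax lay at the wild-type level.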
